A study of Homo sapiens with 4 samples.

Results

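The hypoxia and glucose metabolism genes LDHA, NDRG1, LOXL2, VEGFA, ENO3 and TXNIP were examined by cell line after knockdown of ADAR, the enzyme that turns adenosine into inosine in double-stranded RNA. The 6 genes were taken by their symbols from the authors' deposited tables of genes that differed by at least 2-fold, and all 6 were found, among 2257 distinct genes listed in the HepG2 table, the K562 table or both. They were chosen by the deposited folds, since only genes whose averages in knockdown and control differed by at least 2-fold are in these tables, so their folds are given as a description. Of these, 3 (TXNIP, VEGFA and ENO3) were listed in HepG2 and 3 (LDHA, NDRG1 and LOXL2) in K562, and no gene of the 6 was in both tables. Only 94 of all 2257 listed genes were in both, so this does not set the 6 genes apart. A gene that a table lacks is unlisted there, which does not show that it was unaltered.

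The 4 groups were HepG2 with ADAR knockdown, HepG2 control, K562 with ADAR knockdown and K562 control, with 1 sample each. HepG2 is a human hepatocellular carcinoma line and K562 a human erythroleukemia line. The knockdown cells carried a plasmid with an siRNA against ADAR1, the best of those tried, and the controls carried a plasmid with a scrambled siRNA, so the groups of a line shared stable transfection. The labels give 2 technical replicates per sample; the values used here are the authors' averages, with no value per replicate, so no difference has a replicate check and no error or p-value is given. The labels name no difference in oxygen or glucose between a knockdown and its control, but HepG2 was grown in DMEM and K562 in RPMI 1640, so line and medium cannot be told apart.

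Cells short of oxygen stabilise the transcription factor HIF, which binds short DNA elements with an ACGTG or GCGTG core and raises genes for blood vessel growth, matrix modification and glycolysis. Glycolysis breaks glucose down to pyruvate, and lactate dehydrogenase turns pyruvate into lactate when respiration is limited. A separate pair of factors, MondoA and ChREBP, respond to glucose itself and bind carbohydrate response elements, which hold paired E-box-like half-sites. VEGFA, NDRG1, LOXL2 and LDHA are known hypoxia-induced genes, ENO3 and LDHA encode glycolytic enzymes, and TXNIP is a known target of the glucose-responsive factors.

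The promoters of LDHA and TXNIP are shown because these genes stand for the hypoxia and the glucose input, one from each table. Each sequence is the 250 bases before a RefSeq start on GRCh38.p14, written 5′ to 3′ on the strand of the gene. For LDHA (chr11:18394313-18394562, plus strand) the capitals mark ACGTG or GCGTG on either strand; for TXNIP (chr1:145996580-145996829, minus strand) they mark CACGNG followed by 5 unspecified bases and CACGNG again, searched on both strands.
LDHA: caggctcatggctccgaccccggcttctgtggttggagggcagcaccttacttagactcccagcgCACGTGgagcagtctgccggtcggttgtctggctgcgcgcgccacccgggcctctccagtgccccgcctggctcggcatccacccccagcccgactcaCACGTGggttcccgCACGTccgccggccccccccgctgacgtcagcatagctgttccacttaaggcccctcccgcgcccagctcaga
TXNIP: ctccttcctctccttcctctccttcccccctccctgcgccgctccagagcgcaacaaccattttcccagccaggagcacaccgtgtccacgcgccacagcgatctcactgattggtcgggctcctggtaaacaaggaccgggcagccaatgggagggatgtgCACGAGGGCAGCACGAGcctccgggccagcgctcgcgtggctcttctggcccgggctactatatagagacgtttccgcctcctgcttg
The LDHA window shown held the HIF core at 3 places, after overlapping matches were joined, and in the first 2 the core is read on both strands as CACGTG. Of 35116 windows of this length in the RefSeq promoter table, 43.2% held the core at least once and 5.56% at 3 or more places. A second RefSeq window of LDHA (chr11:18396101-18396350), not shown, held the core at 1 place. The TXNIP window held the paired element once, and 16 of the 35116 windows (0.046%) held it; a second TXNIP window (chr1:145995745-145995994), not shown, held it at 0 places. The core was at 2 places in the TXNIP window shown, at 1 in its second window, at 2 in the first of the pair of ENO3 windows, and at 0 in the second ENO3 window. The tables used here measure RNA and not binding, so these matches describe the sequence only.

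In HepG2, TXNIP and VEGFA were higher in the knockdown and ENO3 was lower. In K562, LDHA, NDRG1 and LOXL2 were all lower. So 2 of 3 were higher in HepG2, where 55.0% of all 1409 listed genes were higher, and 3 of 3 were lower in K562, where 61.8% of all 942 listed genes were lower. Among listed protein-coding genes the shares were 55.5% higher in HepG2, and 29.3% higher and 70.7% lower in K562. Counts of this size near these shares do not set the genes apart from the other listed genes, and the rule used the same contrast. These shares rest on a scaling between libraries that is not known. Multiplying or dividing the knockdown averages by 1.5 shifts a log2 ratio by up to 0.58, and by less at low averages. Of the genes still past 2-fold, 76.3% or 28.2% in HepG2 and 71.3% or 12.3% in K562 would then be higher.

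The targeted gene was lower in the knockdown of both lines, by 3.54-fold in HepG2 and by 2.09-fold in K562. Folds and log2 ratios here and below are taken after adding 1 to each average. Percentages of the control value are plain ratios of the averages without the added 1, so they do not convert exactly to these folds. Library depth is unknown, and the smallest larger average of a listed gene was 14.0 in HepG2 and 13.8 in K562. No hepatocyte marker of 20 was listed in HepG2 and no erythroid marker of 20 in K562, so the labelled cell types could not be checked in tables that hold only altered genes. In HepG2, 3 of 20 erythroid markers (HBM, HBA2 and HBZ) were listed and higher, and of 16 fibroblast and endothelial markers COL5A2, DCN and LUM were higher and TAGLN and COL3A1 lower; in K562 none of these was listed. The sum over a whole marker list cannot be formed from such tables, and the part of these markers in the differences below was not tested.

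**Figure D1:**
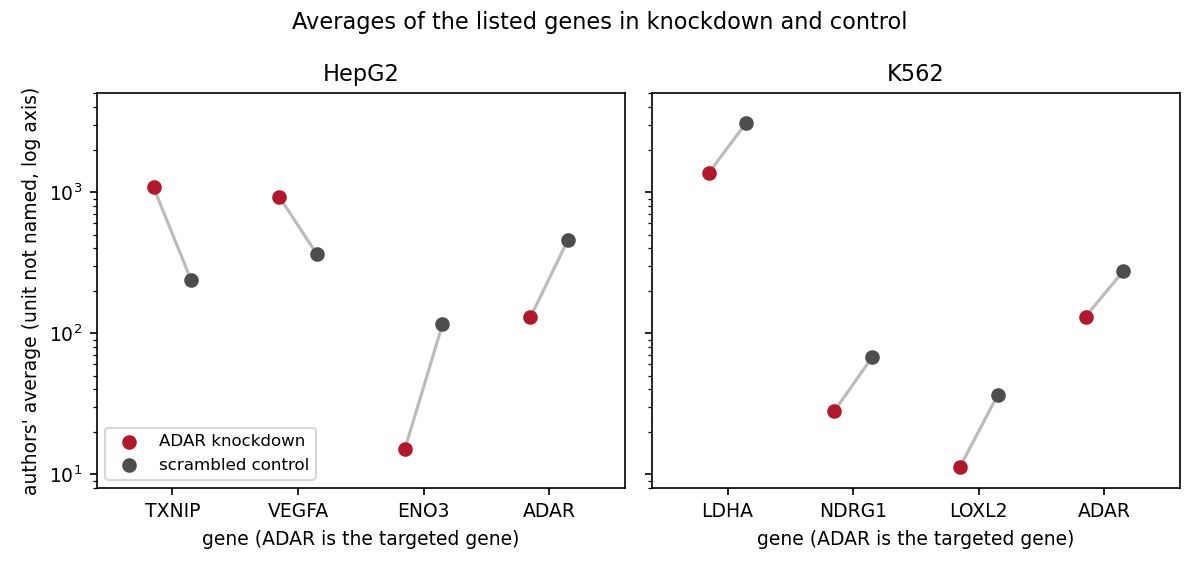
Authors' averages (log axis, unit not named) of the listed genes and ADAR, with the ADAR knockdown in red at the left of each pair and the scrambled control in grey at the right. TXNIP and VEGFA stand higher in the HepG2 knockdown, and ENO3, LDHA, NDRG1, LOXL2 and ADAR stand lower in the knockdown of the line that lists them.

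VEGFA (ENSG00000112715), on chromosome 6, encodes the secreted growth factor that drives blood vessel growth and is a textbook HIF target. Its average in HepG2 was 926 in the knockdown and 363.5 in the control. The knockdown was 2.54-fold higher (log2 ratio 1.35), close to the median fold of 2.56 over all listed HepG2 genes, and 391 of the 775 higher genes had a larger fold. VEGFC, the related ligand best known for lymphatic vessels, averaged 64.5 in the knockdown and 19.5 in the control, 3.20-fold higher. These were the 2 listed of 10 genes for VEGF ligands, receptors and co-receptors in HepG2; the K562 table held none. In the reference annotation an antisense gene overlaps VEGFA on the opposite strand; it was in neither table, and strand use in counting is not stated.

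NDRG1 (ENSG00000104419), on chromosome 8, encodes a cytoplasmic protein induced by hypoxia and differentiation and repressed by MYC-family factors. Its K562 average was 28 in the knockdown and 67.25 in the control. The knockdown held 41.6% of the control value, a 2.35-fold lower level (log2 ratio -1.23). None of its paralogs NDRG2, NDRG3 and NDRG4 was listed in either line.

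LOXL2 (ENSG00000134013), also on chromosome 8, encodes a copper-dependent lysyl oxidase that cross-links collagen and elastin. Its K562 average was 11.25 in the knockdown and 36.25 in the control. That left 31.0% of the control value, 3.04-fold lower (log2 ratio -1.60), the lowest ratio of the 8 listed hypoxia-induced genes in K562. Its paralogs LOXL3 and LOXL4 were lower as well: LOXL3 averaged 9.33 in the knockdown and 25.8 in the control, and LOXL4 averaged 8.08 in the knockdown and 20.5 in the control. All 3 are low averages whose counting error is unknown. No lysyl oxidase gene was listed in HepG2. The LOXL2 locus overlaps ENTPD4 on the same strand and a noncoding gene on the opposite strand in the reference annotation, and neither was listed.

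LDHA (ENSG00000134333), on chromosome 11, encodes the lactate dehydrogenase subunit that favours lactate production. Its K562 average was 1364.5 in the knockdown and 3112 in the control. The knockdown held 43.9% of the control value, 2.28-fold lower (log2 ratio -1.19). It was the nearest of the 6 to the 2-fold limit; a gene just outside the limit cannot be shown, because the tables stop there. Of the 582 lower K562 genes, 370 had a larger fold than LDHA, and the median fold of all listed K562 genes was 2.41. The reference annotation holds 6 processed pseudogenes of LDHA, none of them listed, and how reads were shared with these copies is not stated.

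SLC16A3, which encodes the lactate exporter MCT4, was also lower in K562, with an average of 22.6 in the knockdown and 64 in the control (2.75-fold). LDHB, the other main lactate dehydrogenase subunit gene, was unlisted in both lines. UEVLD, which encodes a protein with a lactate dehydrogenase-like domain, averaged 9.25 in the knockdown and 25 in the control of K562 (2.54-fold lower).

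ENO3 (ENSG00000108515), on chromosome 17, encodes beta-enolase, the muscle form of the enzyme that makes phosphoenolpyruvate. Its HepG2 average was 15 in the knockdown and 115 in the control. The knockdown held 13.0% of the control value, a 7.27-fold lower level (log2 ratio -2.86), the largest fold of the 6 genes. Of the 634 lower HepG2 genes, 40 had a larger fold. ENO1 and ENO2, the forms of most tissues and of neurons, were unlisted in both lines. ENO4, a divergent enolase-like gene, was listed in K562 and was higher there, at 32.5 in the knockdown and 13.5 in the control. PFN1 overlaps ENO3 on the opposite strand in the reference annotation and was in neither table; without stated strand use, reads from the overlap cannot be assigned.

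TXNIP, listed under ENSG00000117289 and on chromosome 1, encodes an arrestin-family protein that binds thioredoxin and limits glucose uptake. Its HepG2 average was 1079.5 in the knockdown and 236.5 in the control. The knockdown stood at 456% of the control, 4.55-fold higher (log2 ratio 2.19), and 95 of the 775 higher genes had a larger fold. ARRDC4, the paralog that glucose also induces, was unlisted in both lines. TXNIP was the 1 listed gene of 16 of the thioredoxin system in HepG2, and K562 listed none.

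**Figure D2:**
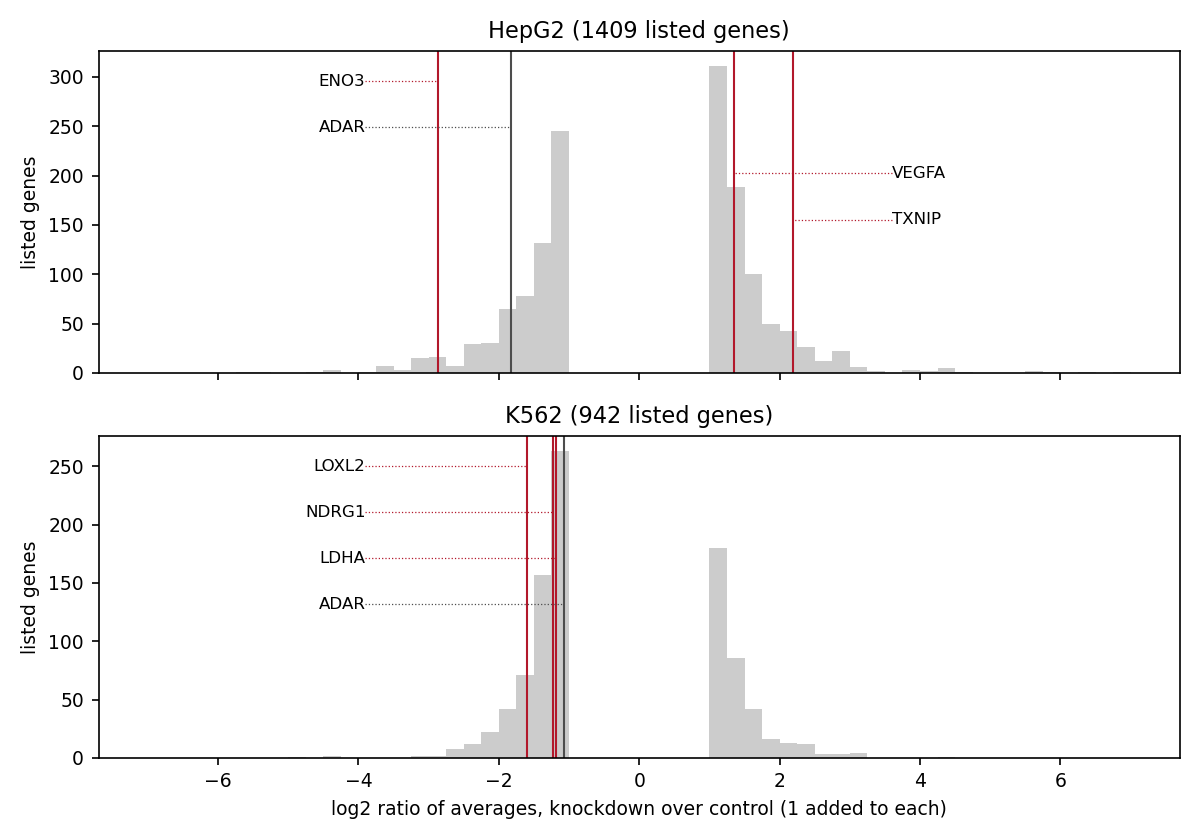
Number of listed genes (y axis) by log2 ratio of the averages, knockdown over control (x axis, bins of 0.25), in HepG2 above and K562 below. Red lines mark the 6 genes and grey lines ADAR; the empty middle is the 2-fold limit of the tables. ENO3 at -2.86 and TXNIP at 2.19 stand out in the tails of HepG2, whereas VEGFA at 1.35, LDHA at -1.19 and NDRG1 at -1.23 lie near the limit.

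Over a wider list of 71 hypoxia-induced genes, 11 were listed in HepG2, with 9 higher and 2 lower in the knockdown, and 8 were listed in K562, all 8 lower. LDHA, though a known hypoxia-induced gene, was counted with the glycolytic enzymes and is not in these counts. Over all listed genes 55.0% were higher in HepG2 and 61.8% were lower in K562, and 70.7% of the listed K562 protein-coding genes were lower. The median log2 ratio of the listed genes was 1.35 in HepG2, against 1.05 over all listed genes, and -1.30 in K562, against -1.09 over all. No listed ratio lies inside the 2-fold limit, so such a median depends on the share of genes in each direction. A median further out is therefore not read as a stronger response. Without VEGFA in HepG2, 8 of 10 were higher; without NDRG1 and LOXL2 in K562, 6 of 6 were lower; these few genes are to be read against the same shares of 55.0% and 61.8%, and nothing particular to hypoxia-induced genes is drawn from them. The list was drawn up with earlier results of these data known, and the split by cell line was not tested. At most 11 of the 71 genes were listed in any table, so the counts describe listed genes and not hypoxia-induced genes as a whole. They also rest on the unknown scaling and on low averages: the K562 count of lower genes was 1 with knockdown averages multiplied by 1.5 and 3 with a larger average at or above 50, and the HepG2 count of higher genes was 4 with knockdown averages divided by 1.5.

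The higher genes of this list in HepG2 other than VEGFA are given here, and why they were higher was not tested. STC2, a secreted glycoprotein, averaged 1808 in the knockdown and 93 in the control (19.2-fold higher). IGFBP1, which binds insulin-like growth factors, averaged 97 in the knockdown and 13.2 in the control (6.92-fold higher). ATF3 and MAFF, basic leucine-zipper factors of general stress and early responses, were 6.58-fold and 5.64-fold higher. Their control averages were 7.3 and 32, the first of them low. The lipase inhibitor gene ANGPTL4 was 2.28-fold higher, at low averages of 23.25 in the knockdown and 9.625 in the control. NFIL3, which encodes another basic leucine-zipper factor, was 2.48-fold higher. CITED2, a HIF target whose product competes with HIF for its coactivators, averaged 354 in the knockdown and 141.5 in the control and was the 1 listed gene of 24 of the HIF pathway in either line. The remaining higher gene, singled out once its value was known, was DDIT4 (2.57-fold).

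ANKRD37, a HIF-1 target, went the other way in HepG2, with an average of 45 in the knockdown and 224 in the control (4.89-fold lower). CXCR4, a chemokine receptor gene, was lower in both lines, at 155 in the knockdown and 329 in the control of HepG2, and at 7 in the knockdown and 16 in the control of K562. In K562, MXI1, a MYC antagonist, averaged 105 in the knockdown and 247 in the control. TMEM45A and ANG, the angiogenin gene, were 2.55-fold and 2.59-fold lower there. STC2 averaged 15.5 in the knockdown and 41.8 in the control of K562, the opposite direction to HepG2. CA9, ADM, BNIP3, EGLN1, EGLN3, PDK1 and SLC2A1, widely used hypoxia markers, were unlisted in both lines, as was HIF1A.

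**Figure D3:**
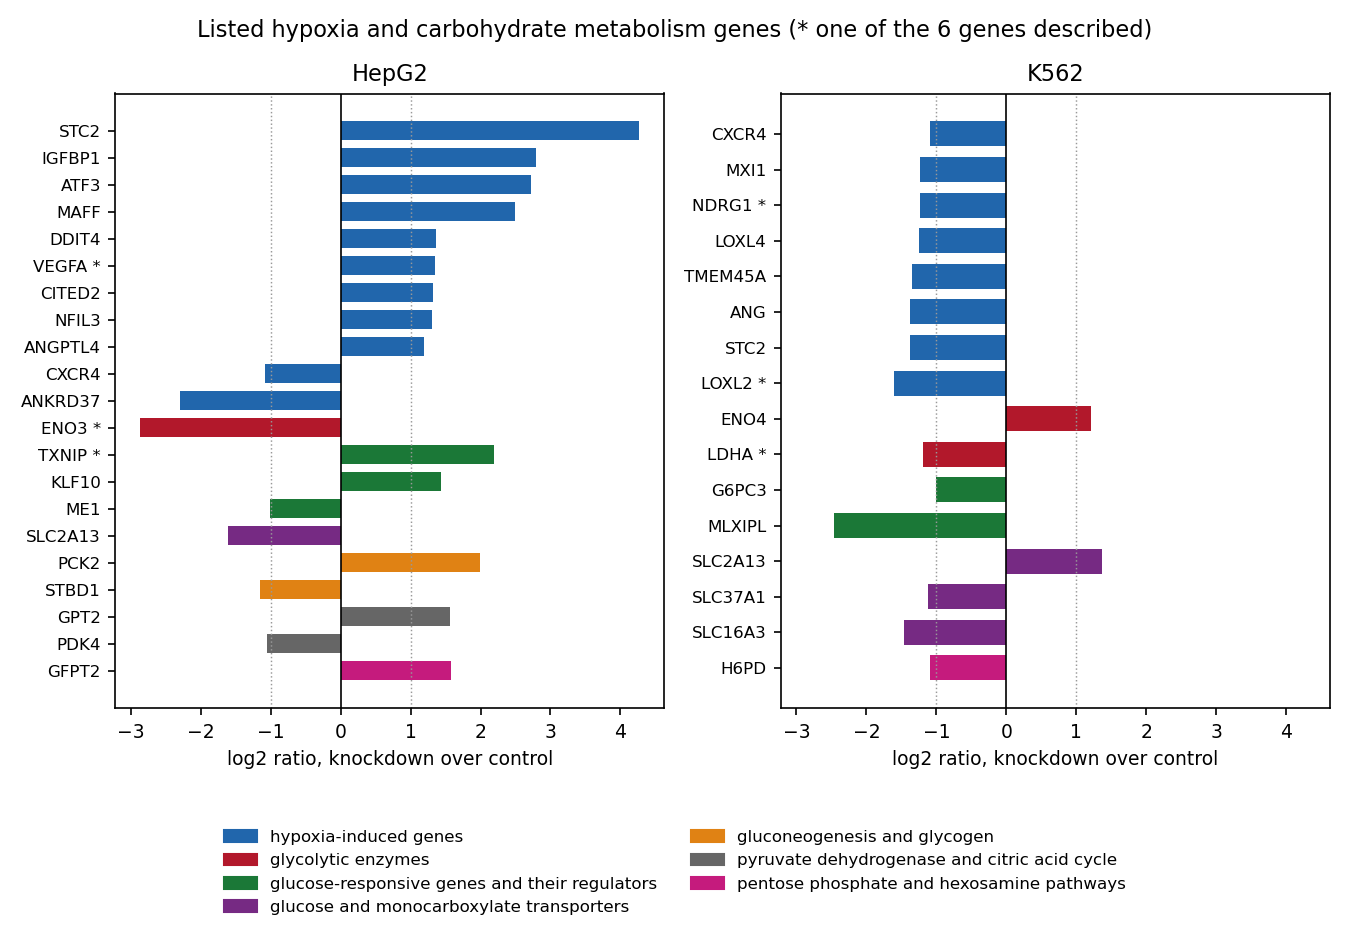
Log2 ratios, knockdown over control, of the listed genes of 7 lists in HepG2 (left) and K562 (right), with bars coloured by list, each gene drawn once, and dotted lines at the 2-fold limit. In HepG2 14 bars point right (higher) and 7 point left (lower), where 55.0% of all listed genes were higher. In K562 2 point right and 14 left, where 61.8% of all listed genes and 70.7% of listed protein-coding genes were lower. The asterisks mark the 6 genes described, which were chosen by their folds and are in these counts.

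Of 182 genes on 6 carbohydrate lists, 10 were listed in HepG2 and 8 in K562. The share of all measured genes that reached the tables is not known, so these counts are not read as few or many. Of 39 glycolytic enzyme genes, ENO3 alone was in the HepG2 table, and LDHA and ENO4 alone were in the K562 table. Hexokinases, phosphofructokinases, aldolases, GAPDH, PGK1 and PKM were unlisted. Of 27 glucose-responsive genes and regulators, HepG2 listed TXNIP, KLF10 and ME1. KLF10, a zinc-finger repressor, averaged 587 in the knockdown and 215 in the control, and ME1, the cytosolic malic enzyme, averaged 44.5 in the knockdown and 90.7 in the control. K562 listed MLXIPL, which encodes ChREBP, at 4 in the knockdown and 26.5 in the control (5.50-fold lower). Both MLXIPL averages are low, and their counting error is unknown. G6PC3, a glucose-6-phosphatase, was also listed in K562, at 319 in the knockdown and 640 in the control.

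Of 27 transporter genes, SLC2A13, which encodes a proton-coupled myo-inositol transporter of the glucose transporter family, was listed in both lines in opposite directions. It averaged 7 in the knockdown and 23.3 in the control of HepG2, and 19.7 in the knockdown and 7 in the control of K562. SLC37A1, a sugar-phosphate transporter, was 2.17-fold lower in K562. Of 34 genes of gluconeogenesis and glycogen, PCK2, the mitochondrial PEP carboxykinase, averaged 235 in the knockdown and 58.5 in the control of HepG2, and STBD1, a glycogen-binding protein, averaged 31 in the knockdown and 69.8 in the control. Of 38 genes of pyruvate dehydrogenase and the citric acid cycle, HepG2 listed GPT2, an alanine aminotransferase, 2.95-fold higher and PDK4, a kinase that inhibits pyruvate dehydrogenase, 2.07-fold lower. PDK4 averaged 6.33 in the knockdown and 14.2 in the control. Of 20 pentose phosphate and hexosamine genes, GFPT2 averaged 20.5 in the knockdown and 6.17 in the control of HepG2 (3-fold higher). H6PD averaged 10 in the knockdown and 22.5 in the control of K562 (2.14-fold lower). The averages of PDK4, GFPT2 and H6PD are low, and their counting error is unknown. Over these 6 carbohydrate lists, 5 of 10 listed genes were higher in HepG2, against 55.0% of all listed genes and 55.5% of listed protein-coding genes. In K562, 6 of 8 were lower, against 61.8% of all listed genes and 70.7% of listed protein-coding genes. These counts include TXNIP, ENO3 and LDHA, which were chosen by their folds.

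For each of the 6 genes the most similar symbols in its table were found by the Euclidean distance between the log2 averages (1 added, no length correction) of knockdown and control. Over these 2 values TXNIP lay nearest to AMIGO2 (distance 0.13), SOD2 and EPHA2 among 945 other symbols. VEGFA lay nearest to PTGES (0.09), PLAC8 and FZD10, and ENO3 to KLHL4 (0.11), IGFBP4 and HSPA2. In K562, among 445 other symbols, LDHA lay nearest to DLK1, at a distance of 0.16, and its next neighbours HIST2H3A and COX7B were at 1.62 and 1.69. COX7B was higher in the knockdown (3172) than in the control (1386), the opposite direction to LDHA. NDRG1 lay nearest to MIR220B, HSBP1 and POMZP3, and RARG and ESAM were among the 3 nearest to LOXL2, at distances of up to 0.14. A short distance says only that the averages were similar.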

How the data were processed

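Paired 76-base reads were made from RNA of all 4 groups, per the labels. The submitters' processing notes name TopHat, SAMtools and the build hg19, with no version. How genes were counted, with which annotation and strand use, and whether depth was scaled is not given in the sources. Per the file headers, each deposited table gave an average per gene in knockdown and control, treated here as a signal because the unit is not named, beside the authors' log2 fold and signed fold, treated as a score. Adding 1 to both deposited averages and taking the log2 ratio gave the deposited log2 fold within 5.0e-12. Depth is unknown.

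The tables held 1413 (HepG2) and 945 (K562) rows, all at or past 2-fold; of rows that shared a symbol the one with the larger mean was kept, leaving 1409 and 942 genes. Ratios were recomputed with a pseudocount of 1, which understates differences of low genes. Only the arithmetic was checked, on simulated ratios built without noise by the same formula. With 1 sample per group nothing was tested. The 6 genes and all lists were chosen with earlier results of these data known. Genes were named by rule: the 6 genes, ADAR, every listed gene of a list (with more than 8, the 4 highest and 4 lowest) and the 3 nearest symbols of each gene. A gene of the hypoxia list and a nearest symbol are not reported here, and the list was counted without the first. GENCODE release 29 (GRCh38) gave gene types, chromosomes and overlaps and matched 1278 and 840 identifiers. RefSeq promoters (GRCh38.p14) were searched for 3 of the 6 genes, LDHA, TXNIP and ENO3. NDRG1 and LOXL2 were left out of the search by choice, and no promoter was available for VEGFA. Alternatives were pseudocounts of 0.1 and 0, limits of 3-fold or 4-fold, floors on the larger average (the lower quartile, or 50), knockdown averages scaled by 1.5 either way, and matching by identifier. Python 3.11.15, numpy 2.4.6, pandas 2.3.3 and matplotlib 3.10.9 were used.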

Additional observations from a re-analysis of the deposited data

Results flagged for a closer look

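STC2 and SLC2A13 went in opposite directions in the HepG2 and K562 knockdowns. CXCR4, another gene of the lists found in both tables, was lower in both lines. The directions of all 94 genes listed in both tables were not counted. Every listed ratio is past the 2-fold limit, so any gene with opposite directions differs widely between the lines by selection. The log2 ratio of STC2 was 4.27 in HepG2 and -1.38 in K562, a difference of 5.64. The log2 ratio of SLC2A13 was -1.60 in HepG2 and 1.37 in K562, a difference of -2.97. With 1 sample per group these differences were not tested. The SLC2A13 averages were low in both lines. The K562 averages of STC2 were low as well, at 15.5 in the knockdown and 41.8 in the control.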

How the results depend on the processing

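With pseudocounts of 0.1 and 0 every count and direction of the 6 genes was kept. Of the 3 HepG2 genes, 2 were higher; at 3-fold, at 4-fold, with the knockdown divided by 1.5 and on matching by identifier, where the TXNIP identifier had no match,, 1 was higher. Of the 3 K562 genes 1 was listed at 3-fold, 0 at 4-fold and 1 with the knockdown multiplied by 1.5. The log2 ratio was then 0.76 for VEGFA with the knockdown divided by 1.5, and -0.60 for LDHA and -0.67 for NDRG1 with it multiplied, so these 3 fell under 2-fold without a turn of direction. Hypoxia-induced genes higher in HepG2 numbered 9, and 4 at 3-fold, 4 at 4-fold and 4 with the knockdown divided by 1.5; lower ones numbered 2, and 1 at 3-fold, 1 at 4-fold and 1 with it multiplied by 1.5. Those lower in K562 numbered 8, and 1 at 3-fold, 0 at 4-fold, 3 with a larger average at or above 50 and 1 with the knockdown multiplied by 1.5. The 1 higher glycolytic gene in K562, ENO4, was lost at 3-fold, 4-fold, a larger average at or above 50 and division by 1.5 (0 each). These losses follow from the stricter limits or the shift itself. No paired analysis was possible because each group had 1 sample and no test was made; technical replicates alone could not be run on averages. Unknown depth limits low averages such as LOXL2 and NDRG1.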
